A study of Ovis aries with 40 samples.

Results

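Myogenic transcription factors commit cells to the skeletal muscle lineage and drive their differentiation into fibres. On this sheep oligonucleotide array they were taken as every non-control probe whose gene name is MYF5, MYF6, MYOD1, MYOD, MYOG, PAX3 or PAX7, or whose description names myogenic factor 5 or 6, MyoD, myogenin, or paired box 3 or 7. The rule found 6 probes of 3 genes, MYF5, MYOD1 and MYOG, among 15008 probes, of which 1605 carried a gene name and together named 977 genes. MYF6, PAX3 and PAX7 were not found by name and are not analysed here. In the RefSeq gene table MYF6 is the immediate neighbour of MYF5. Probes for PAX6, PAX4 and myodulin were met in the same search and are not members.

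The RNA came from the longissimus dorsi, the long muscle of the back, of Texel sheep, a heavily muscled breed, and Ujumqin sheep, an indigenous Chinese breed with less muscle and more fat. Fetuses of both breeds were taken at 5 ages, 70, 85, 100, 120 and finally 135 d after conception, and lambs, of Ujumqin only, at birth, 1 month and 2 months. Each of the 13 groups had 3 animals except Texel at 100 d, which had 4, so that 40 single-colour arrays were hybridized. The records speak of 3 ewes and give no dam for any fetus, so that some of the 4 may share a dam, and all were treated as independent.

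MYF5, MYOD1 and MYOG are basic helix-loop-helix proteins that bind E-box sequences in muscle genes as dimers with E proteins. MYF5 and MYOD1 act early and determine the myoblast, and MYOG acts later, when myoblasts leave the cell cycle and fuse into myotubes. PAX3 and PAX7 lie upstream of them in muscle progenitors, and PAX7 marks the satellite cells that remain beside the adult fibre. Expression of MYOD1 and MYOG is high while fibres are being formed and falls in grown muscle outside activated satellite cells and newly fused fibres.

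Each gene was represented by a pair of overlapping 60-base probes, called a and b below. The MYF5 probes lie at bases 490 to 549 and 491 to 550 of the mRNA record they were designed on, and share 59 bases. The MYOG probes lie at bases 299 to 358 and 318 to 377 of an expressed sequence tag, and share 41 bases. They are shown because the MYF5 pair gave the same course and the MYOG pair did not. Capitals mark the bases that the probes of a pair share.
MYF5 probe a: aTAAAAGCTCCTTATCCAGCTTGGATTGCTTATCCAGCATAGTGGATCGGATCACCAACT
MYF5 probe b: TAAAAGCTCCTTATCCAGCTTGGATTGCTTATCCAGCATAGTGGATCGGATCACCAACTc
MYOG probe a: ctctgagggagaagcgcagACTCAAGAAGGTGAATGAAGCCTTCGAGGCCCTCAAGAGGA
MYOG probe b: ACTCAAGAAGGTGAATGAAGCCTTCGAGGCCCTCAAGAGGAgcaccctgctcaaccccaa

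The MYOD1 probes lie 1 base apart, at bases 1853 to 1912 and 1854 to 1913 of their mRNA record. MYOD1 is the only gene of the 3 whose accession the RefSeq table also holds, so the names MYF5 and MYOG rest on the array's own annotation. GC content was 43.3% and 45.0% for the MYF5 probes, 45.0% for both MYOD1 probes and 55.0% for both MYOG probes. All 6 probes were well above background on all 40 arrays, and none of their spots was marked as an outlier or saturated.

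MYF5 was highest in the youngest fetuses and lowest in the lambs of 1 month. On the normalized log2 scale, probe b read 11.33, 11.14, 11.34 in the 3 Texel fetuses of 70 d, 10.43, 11.32, 10.58 at 85 d, and 10.25, 10.07, 9.83, 10.16 at 100 d. At 120 d the Texel values were 9.23, 7.61 and 8.57, and at 135 d they were 9.05, 8.98 and 9.52. Every Texel fetus of 70 d was above every one of 100 d or later, and the 120 d group had the widest scatter, with replicate 2 the lowest fetal array of either breed.

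In Ujumqin, MYF5 probe b read 11.40, 11.07, 10.93 at 70 d, 11.07, 11.27, 10.58 at 85 d, and 10.20, 10.29, 10.46 at 100 d. It read 8.81, 9.52, 9.63 at 120 d and 9.03, 8.80, 8.59 at 135 d. After birth it read 7.99, 7.93, 8.02 in newborn lambs, 6.22, 6.54, 7.24 at 1 month, and 8.08, 6.91, 7.67 at 2 months. All 9 lambs were below all 15 Ujumqin fetuses, and the 2 month group overlapped the newborn group.

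**Figure D1:**
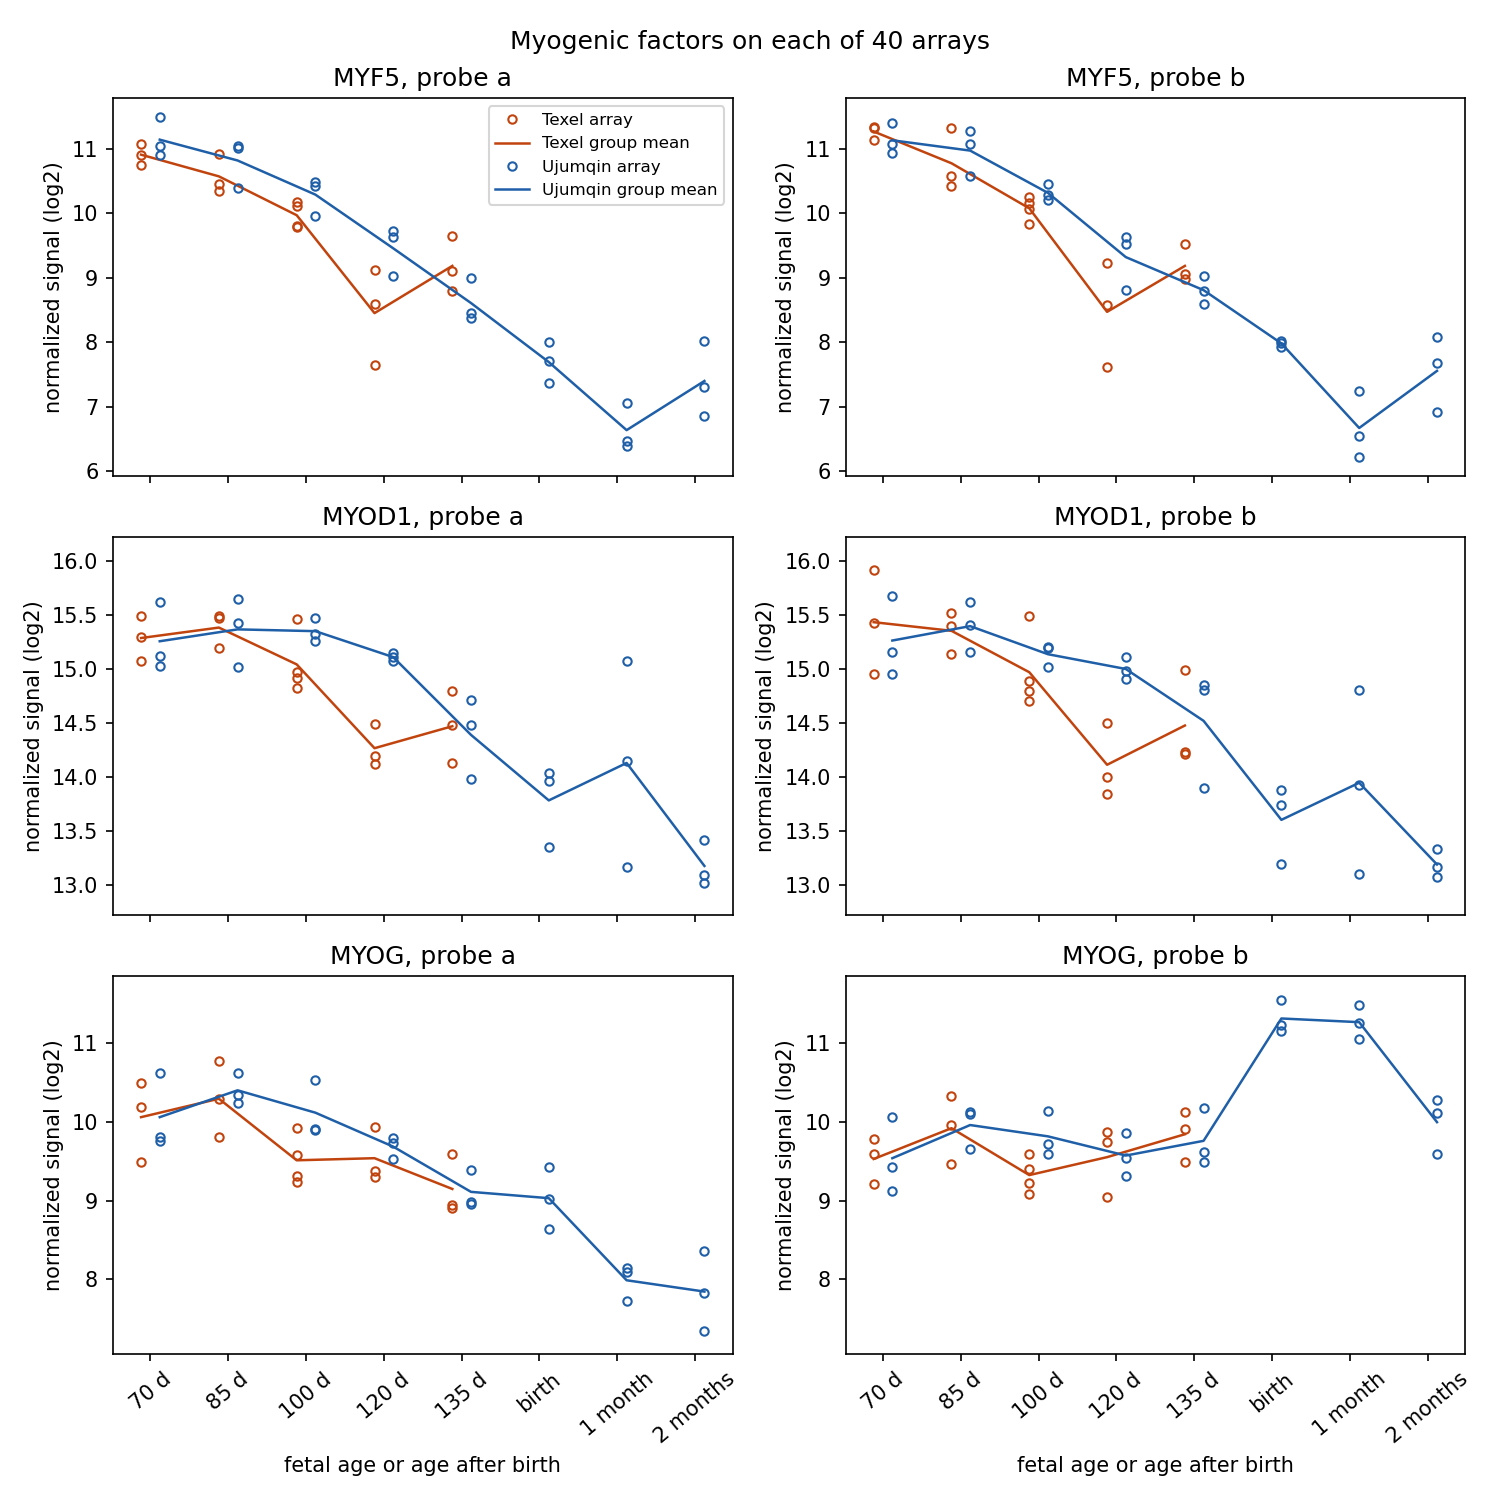
Normalized log2 signal (vertical axes) of the 6 probes of MYF5, MYOD1 and MYOG against fetal age or age after birth. Circles are single arrays and lines join group means, rust for Texel and blue for Ujumqin. MYF5 runs from a mean of 11.27 in Texel at 70 d to 6.67 at 1 month in Ujumqin (probe b), and MYOG probe b alone is highest at birth and 1 month.

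Ordered by group mean, MYF5 probe b was highest in Texel at 70 d (11.27 ± 0.12, SD, n = 3), followed by Ujumqin at 70 d (11.13 ± 0.24, n = 3), Ujumqin at 85 d (10.97 ± 0.36, n = 3) and Texel at 85 d (10.78 ± 0.48, n = 3). Neighbours in that run were closer than the larger of their SDs. Ujumqin at 100 d (10.32 ± 0.13, n = 3), Texel at 100 d (10.08 ± 0.18, n = 4) and Ujumqin at 120 d (9.32 ± 0.44, n = 3) came next, and in that run each step was wider than the larger SD. Texel at 135 d (9.18 ± 0.30, n = 3), Ujumqin at 135 d (8.81 ± 0.22, n = 3) and Texel at 120 d (8.47 ± 0.82, n = 3) followed, and of these only Ujumqin at 135 d lay below its neighbour by more than the larger SD. The lowest were the lambs at birth (7.98 ± 0.05, n = 3), 2 months (7.55 ± 0.59, n = 3) and 1 month (6.67 ± 0.52, n = 3), of which only the 1 month group lay below its neighbour by more than the larger SD. Probe a put the groups in nearly the same order, with Ujumqin at 70 d first (11.14 ± 0.31, n = 3) and 1 month last (6.64 ± 0.36, n = 3).

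MYOD1 stayed on a plateau from 70 to 100 d and read lower from 120 d in Texel and from 135 d in Ujumqin. In Texel, probe a read 15.30, 15.07, 15.49 at 70 d, 15.19, 15.49, 15.47 at 85 d and 15.46, 14.92, 14.82, 14.97 at 100 d, then 14.49, 14.19, 14.12 at 120 d and 14.48, 14.80, 14.13 at 135 d. In Ujumqin fetuses it read 15.62, 15.03, 15.12 at 70 d, 15.65, 15.43, 15.02 at 85 d and 15.47, 15.26, 15.32 at 100 d, then 15.11, 15.15, 15.07 at 120 d and 13.98, 14.48, 14.71 at 135 d. The Texel fetuses of 120 d lay below all fetuses of 70 and 85 d, while Ujumqin fetuses of 120 d still overlapped them.

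After birth, MYOD1 probe a read 13.96, 13.35, 14.04 in newborn lambs, 13.17, 14.15, 15.07 at 1 month, and 13.42, 13.02, 13.09 at 2 months. The 1 month group had the widest spread, with an SD of 0.95 where the other groups had 0.38 or less, and replicate 3, a male, reached the fetal plateau. In the order of means, Texel at 85 d (15.38 ± 0.17, n = 3) stood first and 2 months (13.18 ± 0.21, n = 3) last. Among neighbours, only the steps below Texel at 100 d (15.04 ± 0.28, n = 4) and below birth (13.78 ± 0.38, n = 3) were wider than the larger SD. Probe b ran from 15.43 ± 0.49 in Texel at 70 d to 13.19 ± 0.13 at 2 months (n = 3 each).

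MYOG gave a different course with each of its probes. Probe a read 10.49, 9.49, 10.19 in Texel at 70 d and 9.59, 8.94, 8.91 at 135 d, and in Ujumqin it read 10.61, 9.81, 9.75 at 70 d and 8.96, 8.98, 9.39 at 135 d. It went on to 9.02, 8.64, 9.43 in newborn lambs, 7.73, 8.15, 8.09 at 1 month, and 8.36, 7.83, 7.35 at 2 months. By this probe the lambs of 1 and 2 months were below every fetus.

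On the same arrays MYOG probe b read 9.78, 9.21, 9.59 in Texel at 70 d and 9.49, 10.12, 9.91 at 135 d. In Ujumqin it read 10.06, 9.12, 9.43 at 70 d and 9.49, 10.17, 9.61 at 135 d. It then read 11.54, 11.15, 11.23 in newborn lambs, 11.48, 11.25, 11.05 at 1 month, and 10.28, 9.59, 10.11 at 2 months. By this probe the lambs at birth and 1 month were above every fetus, and those of 2 months were within the fetal range. The fetal means of probe b all lay between 9.32 ± 0.22 (Texel at 100 d, n = 4) and 9.96 ± 0.27 (Ujumqin at 85 d, n = 3), with no neighbour in their order further away than the larger SD.

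The comparison of 70 with 135 d asks how far the factors moved over mid and late gestation. In Texel, 5 of the 6 probes were called lower by limma (an adjusted p under 0.05, after Benjamini-Hochberg adjustment over all 14525 probes tested), beside 22.6% of all probes tested that were called lower. In Ujumqin 4 of 6 were called lower, beside 20.9%. With the slide that held each array as a fixed term, 0 of 6 were called in either breed. No slide held both ages of a breed. MYF5 probe b was 4.25-fold lower at 135 d in Texel (log2 difference -2.09, SE 0.32, adjusted p = 3.4e-06, n = 3 and 3) and 5.02-fold lower in Ujumqin (-2.33, SE 0.32, adjusted p = 6.7e-07, n = 3 and 3), and in both breeds the stages did not overlap. In these bulk samples fewer myogenic cells and less RNA per cell cannot be told apart.

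MYOD1 probe a was 1.76-fold lower in Texel (-0.82, SE 0.29, adjusted p = 0.024) and 1.82-fold lower in Ujumqin (-0.86, SE 0.29, adjusted p = 0.019), with n = 3 per group and no overlap in either breed. MYOD1 probe b was called in Texel (-0.96, SE 0.32, adjusted p = 0.016), with overlapping stages, and was not called in Ujumqin (-0.75, SE 0.32, adjusted p = 0.064). MYOG probe a was 1.88-fold lower in Texel (-0.91, SE 0.30, adjusted p = 0.013), where the stages overlapped, and 1.93-fold lower in Ujumqin (-0.94, SE 0.30, adjusted p = 0.011), where they did not. MYOG probe b was called in neither breed (0.32, SE 0.27 in Texel and 0.22, SE 0.27 in Ujumqin).

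**Figure D2:**
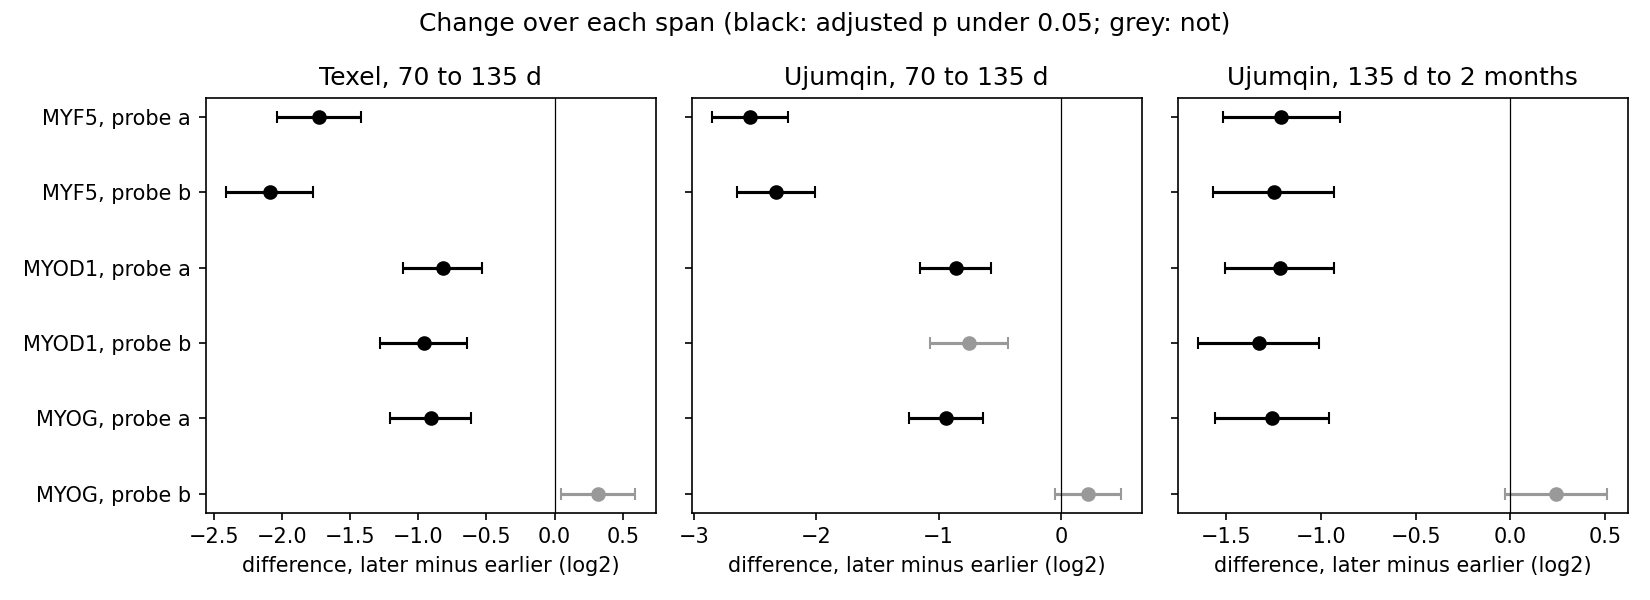
Log2 difference (later minus earlier, horizontal axes) of each probe over 3 spans, with bars of 1 SE. Black marks an adjusted p under 0.05 and grey one that is not. MYF5 has the largest fetal differences (-2.09 in Texel and -2.33 in Ujumqin for probe b), and MYOG probe b is grey in all 3 spans.

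Only MYF5 among these genes kept its calls in both breeds when any 1 of the 40 arrays was left out. With slide as a fixed term its calls were lost too. The Texel count fell from 5 to 2, the MYF5 pair, without 135 d replicate 3. It fell to 3 without 70 d replicate 1, 70 d replicate 3 or 135 d replicate 1, and to 4 without 135 d replicate 2. The Ujumqin count fell from 4 to 2, again the MYF5 pair, without 70 d replicate 1, and to 3 without 135 d replicate 1, and it was 5 without 135 d replicate 3 or without 1 month replicate 1 or 3. Scaling each array to its 75th percentile moved the median of all probes by -0.17 over this span in Texel (-0.04 after quantile normalization) and left 3 calls, with MYOD1 at -0.50 and -0.63 no longer called. In Ujumqin the same scaling gave -0.55 and -0.44 for MYOD1, not called, and -2.68 and -2.45 for MYF5, called.

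Over all 5 fetal stages together, an F test in limma called 5 of 6 probes in Texel, where 51.8% of all probes were called, and 4 of 6 in Ujumqin, where 37.8% were. The probe left uncalled in both breeds was MYOG probe b, and MYOD1 probe b was uncalled in Ujumqin only. The Ujumqin count was 3 without 85 d replicate 1 or 2, 100 d replicate 1, or 135 d replicate 1 or 2. With slide as a random block it was also 3, since MYOD1 probe a was no longer called (adjusted p = 0.063). With slide as a fixed term 0 of 6 probes were called in either breed.

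Between successive stages the calls were few. In Texel only the MYF5 pair was called, at the step from 100 to 120 d, where probe b was 3.05-fold lower (-1.61, SE 0.30, adjusted p = 0.00054, n = 4 and 3) and probe a 2.87-fold lower (-1.52, SE 0.29, adjusted p = 0.00081, n = 4 and 3), with no overlap between the stages. Neither was called with slide as a fixed term. Of all probes, 7.95% were called lower at that step. The MYOD1 pair stood just outside the threshold there, at -0.77 (SE 0.27, adjusted p = 0.054) for probe a and -0.86 (SE 0.30, adjusted p = 0.051) for probe b, also without overlap. Both were called as well, making 4, without Texel 120 d replicate 1, Ujumqin newborn replicate 2, or 1 month replicate 1 or 3. The count was 3 without Texel 70 d replicate 2 or 3, Texel 135 d replicate 2, Ujumqin 70 d replicate 1 or Ujumqin 135 d replicate 1.

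At the other Texel steps limma called 0 of 6 probes, beside 0.668% of all probes from 70 to 85 d, 7.49% from 85 to 100 d and 6.35% from 120 to 135 d. An unadjusted p under 0.05 was met by 0, 4 and 2 of the 6 at these steps. MYF5 probe b stood 0.71 higher at 135 d than at 120 d in Texel (SE 0.32, adjusted p = 0.16), and without 120 d replicate 1 both MYF5 probes were called at that step. In Ujumqin 0 of 6 probes were called at each of the 4 fetal steps, beside 0.275%, 1.70%, 1.22% and 9.91% of all probes in order of age. There an unadjusted p under 0.05 was met by 0, 1, 2 and 2 probes. The largest of these steps was that of MYF5 probe b from 100 to 120 d (-1.0, SE 0.32, adjusted p = 0.14). From 120 to 135 d, 1 probe was called without Texel 120 d replicate 2.

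Around birth the probes parted. From 135 d to birth 4 of 6 probes were called in Ujumqin, 3 lower and 1 higher, beside 42.8% of all probes called in either direction. MYOG probe b was 2.93-fold higher in newborn lambs (1.55, SE 0.27, adjusted p = 3.3e-05, n = 3 and 3, no overlap). MYF5 was lower by both probes (-0.92, SE 0.31, adjusted p = 0.018 for probe a, and -0.83, SE 0.32, adjusted p = 0.035 for probe b), as was MYOD1 probe b (-0.92, SE 0.32, adjusted p = 0.022), each with n = 3 per group and no overlap. MYOG probe a was level (-0.08, SE 0.30).

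The MYOG probe b call at birth held whichever array was left out, and the 3 lower calls did not. The count was 1 without newborn replicate 2 and 2 without Ujumqin 135 d replicate 2. It was 3 without newborn replicate 1 or 3 or 135 d replicate 1 or 3, and 5 without 1 month replicate 1 or 3. Scaling to the 75th percentile moved the median of all probes by 0.22 at this step (-0.01 after quantile normalization). MYF5 was then at -0.65 and -0.59, not called, MYOG probe b at 1.61, called, and MYOG probe a at 0.11, of the opposite sign and not called. With slide as a fixed term 0 of 6 probes were called at this step. MYOG probe b was then at 2.43 (SE 0.77, adjusted p = 0.1).

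From birth to 1 month 3 probes were called lower, beside 10.8% of all probes. These were MYF5 probe b (-1.31, SE 0.32, adjusted p = 0.0041), MYF5 probe a (-1.05, SE 0.31, adjusted p = 0.017) and MYOG probe a (-1.04, SE 0.30, adjusted p = 0.013), with n = 3 per group and no overlap. The count of lower calls was 1, MYF5 probe b, without newborn replicate 3 or 1 month replicate 1, and 2 without 1 month replicate 2. Without 1 month replicate 1, MYOD1 probe a was called higher. From 1 to 2 months 2 probes were called lower, beside 4.41% of all probes. MYOG probe b was 2.41-fold lower (-1.27, SE 0.27, adjusted p = 0.0046, n = 3 and 3, no overlap) and was called whichever array was left out. MYOD1 probe a (-0.96, SE 0.29, adjusted p = 0.041, n = 3 and 3) overlapped between the groups. It ran from -1.44 to -0.48 with 1 array left out, and with slide as a random block it was not called (adjusted p = 0.071). The count of lower calls was 1 without 1 month replicate 2 or 3 or 2 months replicate 2 or 3, and 3 without 1 month replicate 1. MYF5 probe b was called higher at 2 months without 1 month replicate 3, 2 months replicate 2, or Texel 120 d replicate 1 or 2. At this step the 75th percentile scaling moved the median of all probes by -0.11. With slide as a fixed term 0 of 6 probes were called from birth to 1 month or from 1 to 2 months.

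The 6 arrays of the span from 135 d to 2 months were on the same slide. Here 5 of 6 probes were called lower, beside 17.8% of all probes. The decreases were alike, at -1.25 (SE 0.32, adjusted p = 0.0027) for MYF5 probe b, -1.22 (SE 0.29, adjusted p = 0.0018) for MYOD1 probe a and -1.26 (SE 0.30, adjusted p = 0.0014) for MYOG probe a, each with n = 3 per group and no overlap. MYOG probe b was not called (0.24, SE 0.27). The same 5 probes were called whichever of the 40 arrays was left out.

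The disagreement of the MYOG probes was followed on each array as probe b minus probe a, a difference whose own size carries no meaning but whose change over the groups does. At 70 d it averaged -0.53 ± 0.22 in Texel and -0.52 ± 0.19 in Ujumqin (SD, n = 3 each). It then went through -0.38, -0.19 and 0.01 to 0.70 in Texel, and through -0.44, -0.30 and -0.11 to 0.65 in Ujumqin, from 85 to 135 d. Of the 135 d fetuses, Texel replicate 1 was on slide 4 and was at -0.10. The 8 fetuses on that slide, this one among them, ran from -0.40 to 0.07. The 5 fetuses on slide 5, all of 135 d, were at 0.22 to 1.2. Age and slide cannot be told apart in this late fetal rise. After birth the difference was 2.28 ± 0.41 in newborn lambs, 3.27 ± 0.42 at 1 month and 2.14 ± 0.53 at 2 months (n = 3 each).

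The 9 lambs ranged from 1.76 to 3.75 and the 31 fetuses from -0.72 to 1.2, without overlap. Exact permutation tests of the 3 pairs were run after this pattern had been seen and ignore age and slide, so that their p-values are not used. The difference was also seen inside slides, with fetuses at -0.72 to -0.28 and lambs at 1.8 to 2.52 on slide 1, -0.19 to 0.48 and 2.96 to 3.75 on slide 3, and 0.22 to 1.2 and 1.76 to 2.75 on slide 5. On slide 1 the fetuses were all Texel and the lambs Ujumqin, and of the 5 fetuses on slide 3 only 1 was Ujumqin. Fetuses and lambs there differ in breed as well as in age.

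**Figure D3:**
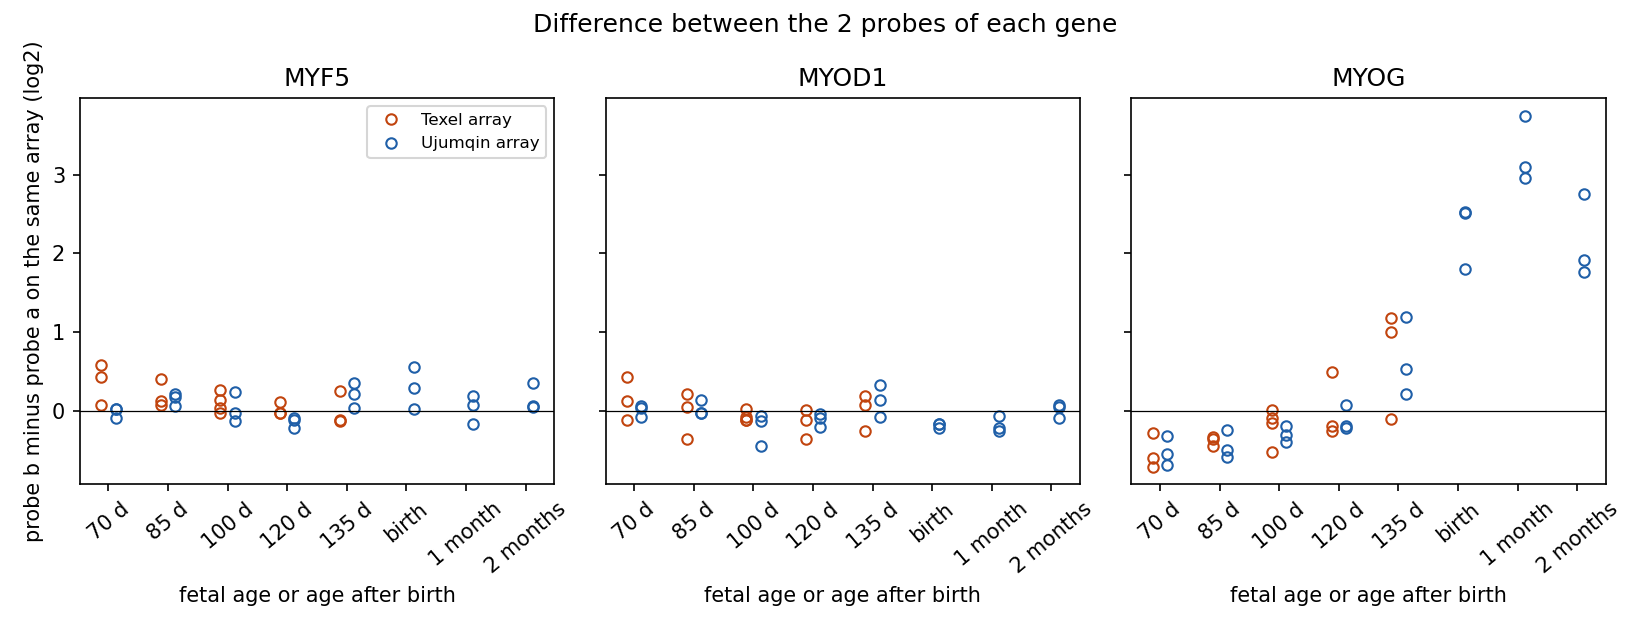
Probe b minus probe a on the same array (log2, vertical axis) for MYF5, MYOD1 and MYOG against age, each circle 1 array, rust for Texel and blue for Ujumqin. MYF5 and MYOD1 stay between -0.45 and 0.58, and MYOG climbs from -0.72 in the fetus to 3.75 in lambs.

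The other pairs moved less. MYF5 probe b minus probe a ran from -0.21 to 0.58 in fetuses and from -0.16 to 0.56 in lambs, and MYOD1 from -0.45 to 0.43 and from -0.26 to 0.08. The MYOD1 difference was also lower in the lambs (-0.12 ± 0.12, SD, n = 9) than in Ujumqin fetuses of 135 d (0.13 ± 0.21, n = 3), by -0.25, where MYOG moved by 1.92 the other way. Against all Ujumqin fetuses (-0.03 ± 0.17, n = 15) the change of the MYOD1 difference was -0.09, and that of MYOG was 2.71. The 2 MYOG probes share 41 of their 60 bases, and the part that is not shared lies at opposite ends. What the 19 bases outside the overlap hybridize with in fetal or lamb muscle was not tested. The probes also differed over 70 to 135 d, where probe a was called lower in both breeds and probe b in neither. No course of MYOG over that span or after birth can be stated from these arrays.

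The 40 arrays were printed on 5 slides of 8, and age moved with the slide. Texel at 70 d and the newborn lambs were on slide 1, Ujumqin at 70 and 85 d on slide 2, the lambs of 1 month on slide 3, Ujumqin at 120 d on slide 4, and Ujumqin at 135 d and 2 months on slide 5. With slide as a fixed term in limma 0 of 6 probes were called over 70 to 135 d in either breed. For MYF5 probe b the SE rose from 0.32 to 0.87 in Texel and to 0.81 in Ujumqin. Its differences were then -1.22 and -1.82, and those of MYF5 probe a -1.48 and -2.67. MYOD1 probe a was at -0.13 in Texel and -0.04 in Ujumqin, and MYOD1 probe b at -0.55 and -0.21. MYOG probe a was at -0.92 in Texel and -0.01 in Ujumqin. The Texel step from 100 to 120 d lost both MYF5 calls (-1.31 for probe a and -1.23 for probe b, SE 0.39 each). The steps around and after birth also had 0 calls, and MYOG probe b at birth was 2.43 (SE 0.77). The 135 d to 2 months span kept the same 5 calls. With slide as a random block the consensus correlation was 0.041, and the counts over the spans from 70 to 135 d and from 135 d to 2 months were unchanged at 5, 4 and 5. It ended both other calls of MYOD1 probe a in Ujumqin, so that 3 probes instead of 4 were called over the 5 fetal stages and 1 instead of 2 from 1 to 2 months. Over the alternatives that kept every array of the comparison, the fixed slide term among them, the adjusted p of MYF5 probe b over 70 to 135 d ran from 1.8e-07 to 0.58 in Texel and from 2.4e-08 to 0.23 in Ujumqin. That of MYOG probe b at birth ran from 1.4e-05 to 0.1, and that of MYF5 probe b from 135 d to 2 months from 0.0016 to 0.0047. With 1 array left out at a time these 4 ran from 4.7e-07 to 5.4e-05, 8e-08 to 1.5e-05, 1.6e-05 to 0.00054 and 0.0008 to 0.033.

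Comparisons inside a slide do not need such a term. MYF5 probe b was -0.40 from 70 to 85 d in Texel on slide 1 (n = 3 and 2) and -0.16 in Ujumqin on slide 2 (n = 3 and 3). From 100 to 120 d it was -0.79 in Texel on slide 3 (n = 3 and 1) and -1.06 in Ujumqin on slide 4 (n = 2 and 3). From 120 to 135 d in Texel it went the other way, 0.96 on slide 4 (n = 2 and 1), and from 85 to 100 d it was -0.33 on slide 2 (n = 1 and 1). No slide held both 70 and 135 d of a breed, so that the full fetal span has no value within a slide. Newborn lambs were -3.29 below Texel fetuses of 70 d on slide 1, and lambs of 1 month -3.35 below Texel fetuses of 100 d on slide 3, pairs that differ in breed as well as in age. Within Ujumqin, lambs of 1 month were at -3.53 against the 1 fetus of 100 d on slide 3 (n = 3 and 1).

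Texel was compared with Ujumqin at each fetal age to ask whether the heavily muscled breed differs in these factors. By limma on the arrays of each stage, 0 of 6 probes were called at any of the 5 ages, beside 0.117%, 0.0207%, 0.0138%, 0.0344% and 0.0207% of all probes in order of age. An unadjusted p under 0.05 was met by 0, 0, 2, 3 and 0 probes. The unequal variance test called 0 after adjustment at every stage, and 2 at an unadjusted p under 0.05, both at 120 d.

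The widest differences were at 120 d and concerned the determination factors. MYOD1 probe a averaged 14.27 ± 0.20 in Texel and 15.11 ± 0.04 in Ujumqin (n = 3 each), a difference of -0.84 (SE 0.18, adjusted p = 0.38) with no overlap, and probe b gave -0.89 (SE 0.22, adjusted p = 0.38), also with no overlap. MYF5 was -1.0 (SE 0.41, adjusted p = 0.47) by probe a and -0.85 (SE 0.45, adjusted p = 0.53) by probe b, with overlapping groups. On slide 4, which held 2 Texel and 3 Ujumqin fetuses of this age, Ujumqin stood 0.95 above Texel for MYOD1 probe a and 1.23 above it for MYF5 probe b. All Texel fetuses of 120 d were male and all Ujumqin fetuses of that age female, so that breed and sex cannot be told apart there. The fit over all groups also called 0 of 6 at 120 d, and 3 without Texel 120 d replicate 1, and 1 without Ujumqin 120 d replicate 1 or 1 month replicate 1 or 3. When that fit was made on the fetal arrays alone it called MYOD1 probe a at 120 d (-0.81), and with array weights it called MYOG probe a at 100 d (-0.67). At 135 d the signs had turned for MYF5 (0.58, SE 0.28 and 0.38, SE 0.22, neither called).

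**Figure D4:**
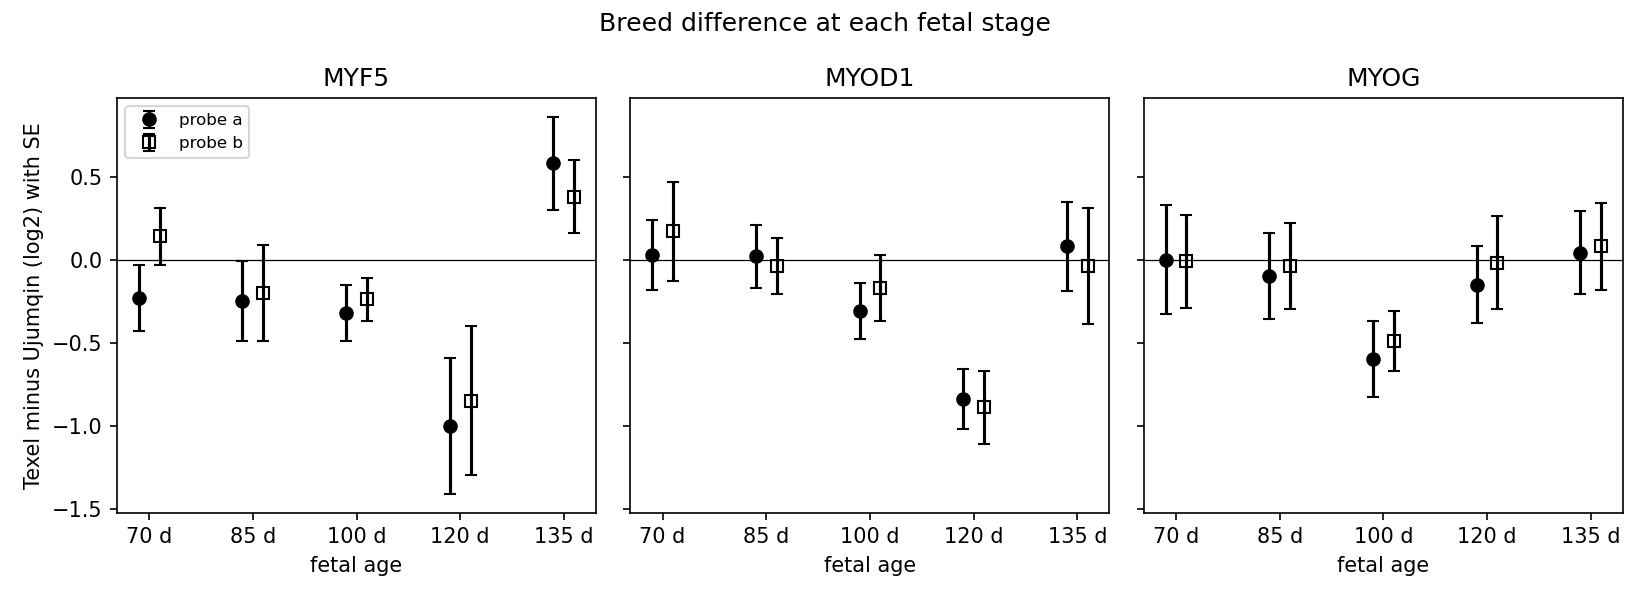
Texel minus Ujumqin (log2, vertical axes) at each fetal age, with bars of 1 SE, filled circles for probe a and open squares for probe b. No difference was called at any age, and the lowest points are those of MYF5 and MYOD1 at 120 d (-1.0 and -0.89).

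MYOG stood apart from them, with its lowest breed difference at 100 d (-0.60, SE 0.23 for probe a and -0.49, SE 0.18 for probe b, adjusted p = 0.34 and 0.33, n = 4 and 3) and -0.15 and -0.02 at 120 d. Averaged over the 5 stages, 0 of 6 probes differed between the breeds, beside 6.18% of all probes, and 0 had an unadjusted p under 0.05. The averages were all negative, from -0.25 (SE 0.14, MYF5 probe a) to -0.10 (SE 0.12, MYOG probe b). A breed difference that varied with stage was called by limma for 0 of 6, beside 0.207% of all probes, with 1 at an unadjusted p under 0.05. Thus the lower MYOD1 values of Texel at 120 d, where breed and sex cannot be told apart, did not pass the test of a difference between the breeds. Between the sexes, with group held constant, limma called 0 of 6, beside 0.0551% of all probes, and 0 had an unadjusted p under 0.05.

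Lists of genes that act with these factors were matched by name, and most of their genes were not found by name and are not analysed here. The list genes and the cell type markers below were not fitted with slide as a term. No slide held both 70 and 135 d of a breed, or both Ujumqin at 135 d and newborn lambs. Age and slide therefore cannot be told apart in their changes over those spans. Of genes of the cell cycle, which the myogenic factors bring to a stop in differentiating myoblasts, 8 of 23 were found. Of these, 7 were lower at 135 d than at 70 d in each breed and 0 higher, with a median of -1.78 in Texel and -1.38 in Ujumqin (-0.04 over all probes in both). Of all probes tested, 22.6% in Texel and 20.9% in Ujumqin were called lower over this span, and 20.4% and 18.5% higher. The mitotic kinase CDK1 was at -3.33 (SE 0.34, adjusted p = 4.8e-09) in Texel and -2.37 (SE 0.34, adjusted p = 2e-06) in Ujumqin. Cyclin A2, CCNA2, was at -2.77 and -2.0 (SE 0.34 each), and cyclin D2, CCND2, at -2.27 and -2.40 (SE 0.23 each). From 135 d to 2 months 6 of the 8 were lower, beside 17.8% of all probes. The largest changes were those of CCNA2 (-1.93, SE 0.34), CDK1 (-1.47, SE 0.34) and CDK4 (-1.04, SE 0.17). Averaged over the fetal stages, CDK1 was the only gene of the list called between the breeds (-0.49, SE 0.15, adjusted p = 0.048), beside 3.38% of all probes called lower in Texel and 2.80% higher. At the step from 135 d to birth, where MYF5 was lower, 1 of the 8 was lower, CCND2 (-0.68, SE 0.23), 0 were higher, and the median was 0.03, where 22.1% of all probes were called lower and 20.7% higher.

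Of the targets in differentiation 5 of 31 were found. CDKN1C, an inhibitor of cyclin-dependent kinases, was lower at 135 d than at 70 d in Texel (-1.33, SE 0.21) and Ujumqin (-1.47, SE 0.21), and lower again at 2 months (-1.51, SE 0.21). The growth factor IGF2 was lower over the same spans (-0.62, -0.69 and -2.25, SE 0.19 each), and its binding protein IGFBP5 was lower in Texel (-0.99, SE 0.31), not called in Ujumqin fetuses (0.01, SE 0.31) and lower at 2 months (-0.99, SE 0.31). Myoglobin, MB, which stores oxygen in the fibre, was higher over all 3 spans (1.31, 2.60 and 2.62, SE 0.25 each). The fast troponin C gene TNNC2 was not called in any of them. In all, 1 target was higher and 3 lower in Texel, and 1 higher and 2 lower in Ujumqin, beside 20.4% of all probes called higher and 22.6% lower in Texel, and 18.5% and 20.9% in Ujumqin. The list medians were -0.62 and 0.01 (-0.04 over all probes in both). Between the breeds MB was called, lower in Texel (-0.37, SE 0.11, adjusted p = 0.034), and the other 4 targets were not, beside 3.38% of all probes lower and 2.80% higher. The widest difference of MB was at 135 d, with means of 14.38 in Texel and 15.52 in Ujumqin, whose fetuses of that age were all female. MB was again higher from 135 d to birth (2.39, SE 0.25), and CDKN1C (-1.33, SE 0.21) and IGF2 (-0.47, SE 0.19) were lower, beside 20.7% of all probes higher and 22.1% lower.

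Of progenitor and satellite cell genes 6 of 27 were found, and 2 were higher at 135 d than at 70 d in both breeds and 0 lower, beside 20.4% of all probes called higher in Texel and 18.5% in Ujumqin. These were CAV1, the caveolar protein (1.82 and 1.67, SE 0.25 each), and BARX2, a homeobox gene (1.18 and 0.79, SE 0.22 each), while MET, ITGB1, CXCR4 and HGF were not called over that span. From 135 d to birth all 6 were called, 4 lower, among them CAV1 (-0.97, SE 0.25), MET (-0.96, SE 0.30) and CXCR4 (-0.85, SE 0.26), and 2 higher, beside 22.1% of all probes lower and 20.7% higher. The higher ones were BARX2 (0.89, SE 0.22) and HGF, which was not well above background on any Ujumqin array of 135 d and has no fold. From 135 d to 2 months 3 of the 6 were lower, beside 17.8% of all probes, CXCR4 (-1.35, SE 0.26), CAV1 (-1.07, SE 0.25) and BARX2 (-0.61, SE 0.22). BARX2 was also the 1 gene of the list called between the breeds, lower in Texel (-0.52, SE 0.10, adjusted p = 0.0015), beside 3.38% of all probes lower and 2.80% higher. Its widest difference was at 120 d, with means of 11.24 in Texel and 12.91 in Ujumqin, the age at which the Texel fetuses were all male and the Ujumqin all female, and at 135 d the means were 11.75 and 11.70.

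Of the dimer partners and inhibitors 1 of 15 was found, BHLHE40, a helix-loop-helix repressor. It was higher at 135 d in Texel (2.76, SE 0.44, adjusted p = 7.2e-06) and Ujumqin (2.29, SE 0.44, adjusted p = 0.0001) and again at 2 months (1.5, SE 0.44, adjusted p = 0.0089), the opposite direction to MYF5. Of the upstream regulators 1 of 19 was found, SHH, which was well above background on 4 of the 40 arrays and was not called. Of MEF2 and cofactors 0 of 17 were found by name.

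Cell type markers moved with the factors in part. Of the skeletal muscle markers 3 of 14 were found, and myoglobin, MB, was higher over each of the spans given above, while TNNC2 and MYLPF were called in none. Their summed signal lay between 19.54 and 20.29 (log2) on all arrays, with TNNC2 the brightest. Probes differ in response, so that a sum follows its brightest probe and is no measure of the amount of a tissue. Connective tissue markers, 3 of 6 found, were all lower at 135 d than at 70 d in both breeds, with COL3A1 at -1.55 and -0.96 (SE 0.22 each), COL1A1 at -1.34 and -1.40 (SE 0.44 each) and DCN at -0.72 and -0.88 (SE 0.19 each), beside 22.6% of all probes lower in Texel and 20.9% in Ujumqin. Their summed signal, in which DCN was the brightest, averaged 17.71 in Texel at 70 d, 16.98 at 135 d, 17.66 and 16.78 in Ujumqin at those ages, and 16.28 at 2 months. Adipocyte markers, 4 of 5 found, had 2 higher and 1 lower in each breed, beside 20.4% of all probes higher in Texel and 18.5% in Ujumqin. The higher ones were LPL (2.51 and 2.74, SE 0.35 each) and FABP4, which was not well above background on every array of 70 d and has no fold, and the lower was LEP (-1.11 and -1.09, SE 0.30 each). Their sum, with LPL the brightest at 135 d, went from 9.97 to 11.73 in Texel and from 10.04 to 11.66 in Ujumqin. From 135 d to birth all 3 connective tissue markers were lower, COL1A1 (-1.77, SE 0.44), COL3A1 (-0.83, SE 0.22) and DCN (-0.78, SE 0.19), while LEP alone of the adipocyte markers was higher (1.45, SE 0.30), and MB alone of the muscle markers, beside 22.1% of all probes lower and 20.7% higher. From 135 d to 2 months COL1A1 (-1.3, SE 0.44) and COL3A1 (-0.83, SE 0.22) were lower and DCN was not called. LPL alone of the adipocyte markers was higher (1.11, SE 0.35). Over that span 17.8% of all probes were called lower and 15.5% higher. The part of these tissues in the decrease of MYF5 and MYOD1 was not tested.

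Blood had 1 marker of 7, HBB, which was not called in the fetal spans and was at -6.27 (SE 0.75, adjusted p = 2.4e-07) from 135 d to 2 months. The endothelial marker KDR, 1 of 5, was not called in the fetal spans and was at -1.24 (SE 0.21) from 135 d to 2 months. Of leukocyte markers 4 of 7 were found, and 3 were higher at 2 months than at 135 d, CD3D, CD3E and CD14 (2.80, SE 0.79, 2.10, SE 0.79 and 0.79, SE 0.20), beside 15.5% of all probes. From 70 to 135 d CD14 was lower in Ujumqin (-0.54, SE 0.20, adjusted p = 0.033), and no leukocyte marker was called in Texel. Only CD4 was called from 135 d to birth, higher, and it was not well above background on any Ujumqin array of 135 d and has no fold. Their sum averaged 9.31 at 135 d and 11.24 at 2 months in Ujumqin, and in Texel at 120 d, the group in which MYF5 scattered most, it ran from 8.75 to 12.41. Nerve markers, 0 of 5, were not found by name. The part of these cells in the factors' values was not tested.

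Likeness was measured as Pearson's r over the 13 group means with 1526 other tested probes that carry a gene name, and since the groups share age and slide it is a description only. MYF5 probe b was most like its partner probe a (0.996), then 2 probes of cyclophilin B (0.983 and 0.975), LOC100125610 (0.972) and LOC100101228 (0.972). MYOD1 probe a was most like its partner (0.988), CDKN1C (0.967), IFNAR1E (0.962), BEGAIN (0.957) and LOC100101229 (0.953). MYOG probe b was most like CYP1A1 (0.965), CD4 (0.931), LOC443289 (0.913) and 2 probes of LOC780459 (0.906 and 0.903), and its partner was not among them. MYOG probe a, added after this was seen, was most like LOC100037668 (0.973), IGF2 (0.972), CD247 (0.963), BCAT1 (0.962) and CYTH2 (0.961). CD4 was well above background on only 4 of the 40 arrays.

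Replicate scatter was slightly wider than usual for these genes. The pooled SD within groups was 0.39 and 0.40 for the MYF5 probes, 0.37 and 0.40 for MYOD1 and 0.37 and 0.33 for MYOG, where the median over all tested probes was 0.31.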

How the data were processed

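Per the file headers, the spot intensity values (gProcessedSignal) came from Agilent Feature Extraction 10.5, background subtracted, from 40 single-colour arrays. Array medians ran from 217.6 to 708.3. The deposited table of the authors holds log2 values, quantile normalized, all column medians being 8.61, not centred by probe and in the direction of the scanner values. It served as an alternative. Spots marked as outliers were left out, spots of a probe averaged, arrays quantile normalized together, values floored at 1 and log2 taken. Probes well above background on at least 1 array (14525 of 15008) were tested with limma 3.58.1 in R 4.3.3, by 1 fit over the 13 groups, or over the arrays of each stage for the breeds, with Benjamini-Hochberg adjustment. P-values measure the spread between these animals, and the number of arrays limits their precision. Scripts were tested on simulated data. RefSeq names (ARS-UI_Ramb_v3.0) matched 662 probes by accession. Each list gene was read from its brightest probe, the called genes of largest change were named, up to 3 per direction, with no fold for a gene near background, and the 5 most alike for each gene. The members and lists were chosen with earlier results of these data known. The alternatives were the scaling, background, filter, floor, outlier spots, variance model, weights, sex, slide, replicate number, call rule and each array left out.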

Additional observations from a re-analysis of the deposited data

How the results depend on the processing

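Of 12 counts of member calls, the deposited table, no filter, a stricter filter, a floor of 16, outlier spots kept, sex as a covariate and slide as a random block each kept all they could be run on within 1.5 times. With slide as a fixed effect the calls became 0 over the Texel stages, the Ujumqin stages, the successive Texel stages, both spans from 70 to 135 d and the Ujumqin steps around and after birth. Calls at successive Texel stages, 2 as reported, were 4 with fetal arrays alone, 5 with normexp background, 4 with a variance trend and 5 with array weights. At successive Ujumqin stages, 0 as reported, they were 1 with fetal arrays alone, 1 with normexp and 6 with array weights. The Texel span gave 3 with 75th percentile scaling, 3 with array weights and 2 when a 2-fold change was also required, which gave 2 for the Ujumqin span and 5 for the steps around birth. Between the breeds an unadjusted p with a 2-fold change gave 1 (MYF5 probe a at 120 d). The cause was not tested.

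Without 1 array at a time the counts ran from 3 to 4 over the Ujumqin stages, 2 to 6 at successive Texel stages, 0 to 1 at successive Ujumqin stages, 6 to 10 at the steps around birth, 2 to 5 over each fetal span, and stayed at 5 over the Texel stages, 5 from 135 d to 2 months and 0 for breed within each stage, its average, its variation with stage, and sex. Of the values of called members under the alternatives, 1268 stayed called and 68 did not, none of them with a change of sign. These include the fits with 1 array left out, and most such arrays belonged to neither group compared. There the difference could not move and only the spread could, so that the 1268 are no measure of stability. Replicate numbers did not pair the samples (mean r -0.00664 over 234 pairs, 11 of them over 0.1). With a replicate block the counts were 5 and 3 over the Texel and Ujumqin stages, 2 and 0 at successive stages, 8 around birth, 5, 4 and 5 over the spans, and 0 for breed and sex.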
